A study of Mus musculus with 6 samples.

Results

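Transcripts of 10 genes of muscle protein breakdown and FoxO signalling were examined in mouse gastrocnemius muscle. They were 4 ubiquitin ligase genes (Fbxo32, Trim63, Fbxo30 and Fbxo21), the transcription factor genes Foxo1, Foxo3 and Klf15, and the growth arrest and translation genes Gadd45a, Cdkn1a and Eif4ebp1. The genes were chosen by name, with earlier results of these data known, and each symbol matched 1 row among the 49315 genes counted. All 10 were among the 15847 genes with enough counts to be tested. The muscles came from male C57BL6J mice whose gastrocnemius was injected with an adeno-associated virus (AAV9) at 5 months of age and removed 5 months later. The virus carried green fluorescent protein in the AAV9-HSA-GFP group (replicates 42, 43 and 46) or a constitutively active aryl hydrocarbon receptor in the AAV9-HSA-CAAHR group (replicates 31, 34 and 36). The aryl hydrocarbon receptor (AHR) is a ligand-activated transcription factor, and the CAAHR form lacks the ligand-binding domain. Each transgene was driven by a promoter of the human skeletal actin gene (HSA), which works in muscle fibres, so the other cells of the muscle were not the intended source of the transgene. Every muscle in the comparison had therefore received virus, and uninjected muscle was not analysed here. The study reports that the GFP virus itself drew an immune response in the muscle. By its quantitative PCR, selected immune genes were not lower in CAAHR muscle than in muscle without virus. A gene called lower in CAAHR is therefore lower than in GFP muscle, and which group changed cannot be told from these libraries. The labels do not say whether replicates are separate animals, so the p-values measure the spread between these libraries only. As whole muscle was sequenced, fewer cells of a type and less RNA per cell cannot be told apart.

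Muscle protein is degraded largely by the ubiquitin-proteasome system, in which a ligase selects the protein to be tagged. Atrogin-1, encoded by Fbxo32, and MuRF1, encoded by Trim63, are the ligases best known for rising in wasting muscle, and their transcription is raised by the FoxO factors when insulin and Akt signalling is low and by glucocorticoids. FoxO factors also drive autophagy and fuel-switching genes, while KLF15 is induced by glucocorticoids and promotes amino acid breakdown. The comparison asked whether transcripts of these genes differed between muscle with constitutively active AHR and muscle with green fluorescent protein.

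Promoter stretches of Trim63, Klf15, Foxo3 and Gadd45a are shown because they carry, or lack, the short motifs of the factors named above. Sequences are from RefSeq on GRCm38.p6, 5′ to 3′ on the gene's own strand, with motif letters in capitals and positions counted from the transcription start. Both strands of a window of 300 bases, 250 before the start and 50 after it, were searched for GCGTG (the AHR core), GTAAACA (FoxO) and TGTTCT (the core bound by the glucocorticoid receptor).
Trim63, chr4:134314890-134314959, plus strand: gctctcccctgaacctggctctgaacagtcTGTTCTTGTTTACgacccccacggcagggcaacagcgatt
Klf15, chr6:90462426-90462545, plus strand: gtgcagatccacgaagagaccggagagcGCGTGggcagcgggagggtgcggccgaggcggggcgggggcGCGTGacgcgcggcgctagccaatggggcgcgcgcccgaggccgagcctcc
Foxo3, chr10:42276766-42276855, minus strand: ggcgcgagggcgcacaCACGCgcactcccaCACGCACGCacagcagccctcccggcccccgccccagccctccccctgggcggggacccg
Gadd45a, chr6:67037468-67037557, minus strand: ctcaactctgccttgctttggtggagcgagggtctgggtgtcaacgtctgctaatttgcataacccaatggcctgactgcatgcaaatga

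In the Trim63 stretch the glucocorticoid receptor core, starting at -200, is followed without a gap by the FoxO motif at -194, which reads on the opposite strand. Trim63 was the only gene of those searched with either of these motifs, and its window held no AHR core. Over all 32851 promoter windows, 3.65% held the FoxO motif and 19% the glucocorticoid receptor core. The AHR core was in 32.4% of all windows. It occurred at -122 and -81 in Klf15 and at -144, -130 and -126 in Foxo3, where all 3 lay on the opposite strand and the last pair shared a base. It also occurred at -181 in Fbxo30, at -80 and -44 in Fbxo21, at -247 in Foxo1 and at -206 from the second listed start of Cdkn1a. Gadd45a and the first listed start of Cdkn1a held none of the 3 motifs. Windows were at hand for 8 of the 10 genes, not for Fbxo32 and Eif4ebp1. Such matches describe the letters only, and no binding was measured.

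Library totals ranged from 43432994 to 58825752 counts. The labels were first checked on the delivered gene and its responders. Ahr was at 9.97, 22.8 and 17.3 CPM (counts relative to the library total, after TMM scaling) in CAAHR replicates 31, 34 and 36 and at 1.87 to 2.55 CPM in GFP libraries, and its target Cyp1a1 was at 1231 to 1680 CPM against 5.85 to 7.74 CPM. Counts of the delivered and the resident Ahr cannot be told apart. Markers of gastrocnemius fibres dominated every library, with summed levels of 8 genes of 128400 to 165300 CPM in CAAHR and 199300 to 201200 CPM in GFP muscles, and 4 of the 8 (Acta1, Ckm, Tnnt3 and Tnni2) were significantly lower in CAAHR. The fast myosins Myh1 and Myh2 of the same list leaned the other way, with log2 fold changes of 0.9965 and 1.38, and did not pass (adjusted p = 0.427 and 0.386). The 9 slow fibre markers summed to 2783, 649 and 2518 CPM in CAAHR replicates 31, 34 and 36 and to 228 to 461 CPM in GFP, so that replicate 34 stood apart from its group, though above every GFP library. All 9 had a positive log2 fold change, and 1 (Myh7b) was called. Macrophage markers (8 genes) summed to 24.1 to 41.7 CPM in CAAHR and 48.8 to 105 CPM in GFP muscles, lymphocyte markers (8 genes) to 9.78 to 19.7 and 127 to 431 CPM, and adipocyte markers (6 genes) to 3.69 to 21.3 and 36.6 to 98.8 CPM. Ranges of the 2 groups overlapped for endothelial, fibroblast and satellite cell markers. No listed marker was at 0 in every library. The part of these shifts in the results below was not tested. Values without replicate 34 are given because that library stood apart, and leaving it out widens the slow fibre difference between the groups.

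The atrophy ligases Fbxo32 and Trim63 did not pass the test, whereas Klf15 was significantly higher and Gadd45a and Eif4ebp1 were significantly lower in CAAHR muscles. In the quasi-likelihood test of edgeR, with p-values adjusted by Benjamini-Hochberg over all tested genes, 3 of the 10 genes had an adjusted p under 0.05, against 7.60% of all tested genes (1205 of 15847). Of these, 1 was higher, against a background of 3.04%, and 2 were lower, against 4.57%. Gadd45a was also the 1 gene to change more than 2-fold, which 3.48% of all genes did with an adjusted p under 0.05. The ranges of the groups did not overlap for 5 of the 10 genes, against 29.9% of all genes. Of these 5, Foxo3 and Klf15 were higher and Fbxo21, Gadd45a and Eif4ebp1 were lower in CAAHR muscles. Counts of the 10 genes ranged from 497 (Gadd45a, CAAHR replicate 34) to 37106 (Fbxo32, CAAHR replicate 36) per library. The median log2 fold change (CAAHR minus GFP) was 0.116 over the 10 genes and 0.009 over all genes, and the median absolute value was 0.346 and 0.212.

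**Figure D1:**
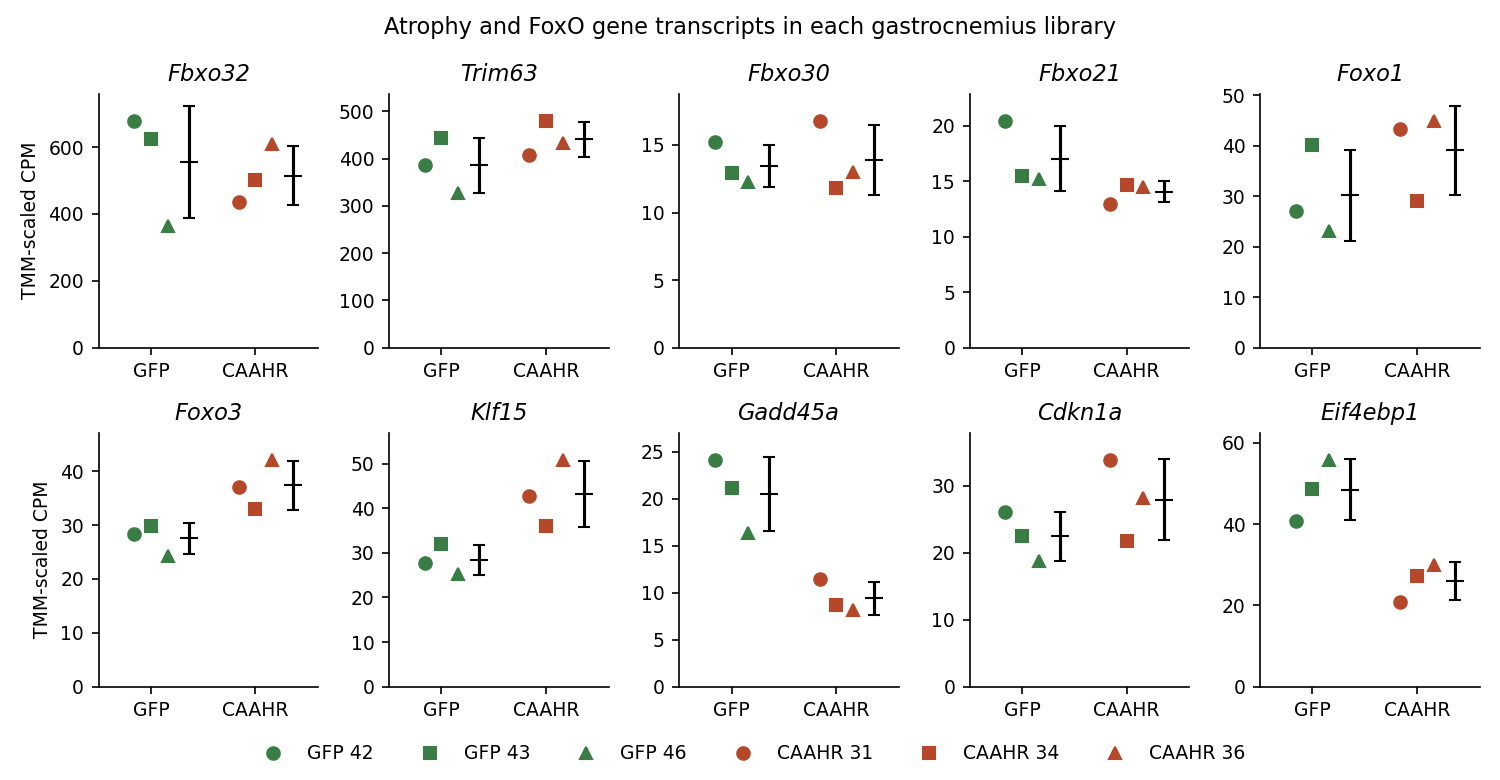
TMM-scaled CPM (vertical axes, each from 0) of the 10 genes in each GFP (green) and CAAHR (red) library, with the group mean and SD as a bar beside the points. The groups are apart for Fbxo21, Foxo3, Klf15, Gadd45a and Eif4ebp1, and GFP replicate 46 (green triangle) is the lowest GFP library in 9 of the 10 panels.

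Of the ligases, Fbxo32 (ENSMUSG00000022358, chromosome 15, 58175879 to 58214932, minus strand, GRCm38) was at 436, 501 and 609 CPM in CAAHR replicates 31, 34 and 36. In GFP replicates 42, 43 and 46 it was at 679, 623.5 and 363 CPM. The highest and the lowest library were thus both GFP muscles, 1.87-fold apart. The means were 515 ± 87.4 (SD, n = 3) CPM in CAAHR and 555 ± 169 CPM in GFP muscles, a log2 fold change of -0.11 ± 0.23 (SE) with an adjusted p of 0.835. The 95% interval of the CAAHR to GFP ratio was 0.639 to 1.345, so changes inside that range could not be told from no change. Spread within the groups (SD 0.386 on the log2 scale) exceeded that of 96.2% of genes at 20 CPM or more.

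Trim63 (ENSMUSG00000028834, chromosome 4, 134315120 to 134329629, plus strand) was at 409, 480.2 and 433 CPM in CAAHR replicates 31, 34 and 36 and at 386.5, 444 and 328 CPM in GFP replicates 42, 43 and 46. Only CAAHR replicate 34 lay above all GFP libraries. Its log2 fold change was 0.19 ± 0.13 with an adjusted p of 0.427, and the ratio's interval of 0.929 to 1.40 was narrower than that of Fbxo32. Set against each other within a library, log2 CPM of Fbxo32 minus that of Trim63 was 0.21 ± 0.24 (SD, n = 3) in CAAHR and 0.48 ± 0.33 in GFP muscles. This difference is not corrected for exon length and serves only to compare the groups. The groups overlapped, and an exact two-sided permutation test gave p = 0.3, where 0.1 is the smallest value that 3 against 3 libraries allow.

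Fbxo30, which encodes the ligase MUSA1 of denervated muscle, was among the least abundant of the 10 genes. It (ENSMUSG00000047648, chromosome 10, 11281330 to 11298052, plus strand) was at 16.8, 11.8 and 13.0 CPM in CAAHR replicates 31, 34 and 36 and at 15.2, 12.9 and 12.25 CPM in GFP replicates 42, 43 and 46. Both the highest and the lowest value were CAAHR libraries. The log2 fold change was 0.04 ± 0.15 with an adjusted p of 0.903, and the interval of the ratio was 0.818 to 1.295.

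Fbxo21, which encodes the FoxO-dependent ligase SMART, was the 1 ligase gene whose groups did not overlap. It (ENSMUSG00000032898, chromosome 5, 117976730 to 118010201, plus strand) was at 13.0, 14.7 and 14.5 CPM in CAAHR replicates 31, 34 and 36 and at 20.45, 15.5 and 15.2 CPM in GFP replicates 42, 43 and 46. The lowest GFP library was barely above the highest CAAHR library, and GFP replicate 42 was far above both. Its log2 fold change of -0.28 ± 0.13 had an adjusted p of 0.236, with an interval of the ratio of 0.672 to 1.01.

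Foxo1 and Foxo3 encode the FoxO factors that act on the ligase promoters in muscle. Foxo1 (ENSMUSG00000044167, chromosome 3, 52268336 to 52353221, plus strand) was at 43.3, 29.0 and 44.95 CPM in CAAHR replicates 31, 34 and 36 and at 27.0, 40.2 and 23.2 CPM in GFP replicates 42, 43 and 46. CAAHR replicate 34 fell among the GFP libraries and GFP replicate 43 lay near the CAAHR libraries. The log2 fold change was 0.38 ± 0.24, the interval of the ratio 0.876 to 1.92 and the adjusted p 0.402, and the spread within groups exceeded that of 96.1% of genes at 20 CPM or more.

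Foxo3 (ENSMUSG00000048756, chromosome 10, 42181841 to 42276755, minus strand) was at 37.1, 33.0 and 42.1 CPM in CAAHR replicates 31, 34 and 36 and at 28.4, 29.9 and 24.3 CPM in GFP replicates 42, 43 and 46. All CAAHR libraries lay above all GFP libraries. Means were 37.4 ± 4.57 CPM in CAAHR and 27.5 ± 2.93 CPM in GFP muscles (log2 fold change 0.44 ± 0.12), with an interval of the ratio of 1.13 to 1.635 and an adjusted p of 0.0526. Thus Foxo3 just missed the threshold over all genes (unadjusted p = 0.00434 in the same edgeR fit). It passed in 5 of 14 alternative fits, which included the DESeq2 Wald test (adjusted p = 0.022) and the fit without CAAHR replicate 34 (adjusted p = 0.0198).

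The difference between the paralogues within a library was compared between the groups. The log2 CPM of Foxo1 minus that of Foxo3, not corrected for exon length, averaged 0.04 ± 0.21 (SD, n = 3) in CAAHR and 0.10 ± 0.29 in GFP muscles, with p = 0.8 by the exact permutation test.

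Klf15 (ENSMUSG00000030087, chromosome 6, 90462576 to 90475238, plus strand) was at 42.7, 35.9 and 50.85 CPM in CAAHR replicates 31, 34 and 36. In GFP replicates 42, 43 and 46 it was at 27.7, 32.0 and 25.3 CPM. Every CAAHR library lay above every GFP library, with CAAHR replicate 34 closest to them. The mean rose from 28.35 ± 3.38 CPM in GFP to 43.2 ± 7.47 CPM in CAAHR muscles, a 1.52-fold difference (95% interval 1.23 to 1.89) and a log2 fold change of 0.61 ± 0.14 with an adjusted p of 0.0303. The call was lost without CAAHR replicate 31 (adjusted p = 0.0885), CAAHR replicate 36 (0.103), GFP replicate 42 (0.0897) or GFP replicate 46 (0.115), while the log2 fold change stayed between 0.47 and 0.72. Without CAAHR replicate 34, whose slow fibre sum was the lowest of its group, it was 0.72 with an adjusted p of 0.00539.

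Gadd45a encodes a growth arrest protein of the nucleus that is induced in denervated and fasted muscle. It (ENSMUSG00000036390, chromosome 6, 67035096 to 67037457, minus strand) was at 11.4, 8.70 and 8.17 CPM in CAAHR replicates 31, 34 and 36 and at 24.2, 21.1 and 16.3 CPM in GFP replicates 42, 43 and 46. The lowest GFP library lay well above the highest CAAHR library. Means were 9.43 ± 1.75 CPM in CAAHR and 20.5 ± 3.96 CPM in GFP muscles, a ratio of 0.459 (95% interval 0.349 to 0.603) and a log2 fold change of -1.12 ± 0.17 with an adjusted p of 0.00654. This was the largest change among the 10 genes, and at least 497 counts in each library stood behind it. The noncoding gene E230016M11Rik on the opposite strand shares 337 of the 1764 exon bases of Gadd45a, at 0.243 CPM in CAAHR and 0.470 CPM in GFP muscles. Whether counting used strand was not given for these libraries, so reads of the shared stretch cannot be told apart.

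Cdkn1a encodes the cell cycle inhibitor p21 and, like Gadd45a, is a p53 target. It (ENSMUSG00000023067, chromosome 17, 29090976 to 29100727, plus strand) was at 33.9, 21.7 and 28.2 CPM in CAAHR replicates 31, 34 and 36 and at 26.0, 22.5 and 18.8 CPM in GFP replicates 42, 43 and 46. Its values leaned in the opposite direction to those of Gadd45a but overlapped, since CAAHR replicate 34 fell below GFP replicates 42 and 43. The log2 fold change was 0.32 ± 0.18 with an adjusted p of 0.318, and the interval of the ratio was 0.944 to 1.64.

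Eif4ebp1 encodes a repressor of cap-dependent translation that binds eIF4E until mTORC1 phosphorylates it. It (ENSMUSG00000031490, chromosome 8, 27260329 to 27276674, plus strand) was at 20.8, 27.3 and 29.9 CPM in CAAHR replicates 31, 34 and 36 and at 40.9, 48.7 and 55.9 CPM in GFP replicates 42, 43 and 46. All CAAHR libraries lay below all GFP libraries. Means were 26.0 ± 4.69 CPM in CAAHR and 48.5 ± 7.51 CPM in GFP muscles, a ratio of 0.537 (95% interval 0.420 to 0.687) and a log2 fold change of -0.90 ± 0.16 with an adjusted p of 0.0111. Without CAAHR replicate 34 the log2 fold change was -0.94 for Eif4ebp1 (adjusted p = 0.0158) and -1.08 for Gadd45a (adjusted p = 0.00977).

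**Figure D2:**
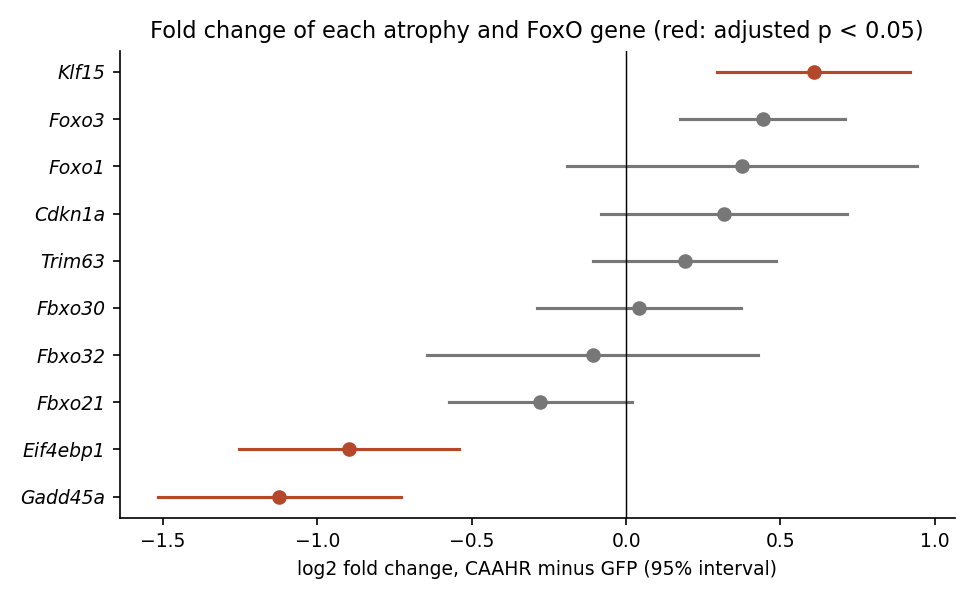
Log2 fold change of each gene, CAAHR minus GFP (horizontal axis), with its 95% interval from the edgeR fit as a line. Klf15, Eif4ebp1 and Gadd45a (red) passed an adjusted p of 0.05, while the interval of Foxo3 lies above 0 at a log2 fold change of 0.44 with an adjusted p of 0.0526.

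The direction of the 3 called genes did not depend on how the counts were handled. Gadd45a and Eif4ebp1 stayed under an adjusted p of 0.05 in all 14 alternative fits, with log2 fold changes of -1.29 to -0.99 and -1.02 to -0.77. Klf15 stayed under it in 10 of the 14. Trim63, Fbxo32, Fbxo30, Fbxo21 and Cdkn1a passed in none of the 14, and Foxo1 passed in 1, the fit with no filter on low counts (adjusted p = 0.0449). The log2 fold change of Fbxo32 ranged from -0.34 without GFP replicate 46 to 0.06 without GFP replicate 42, so its sign was set by single libraries. That of Fbxo30 ranged from -0.12 to 0.14.

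**Figure D3:**
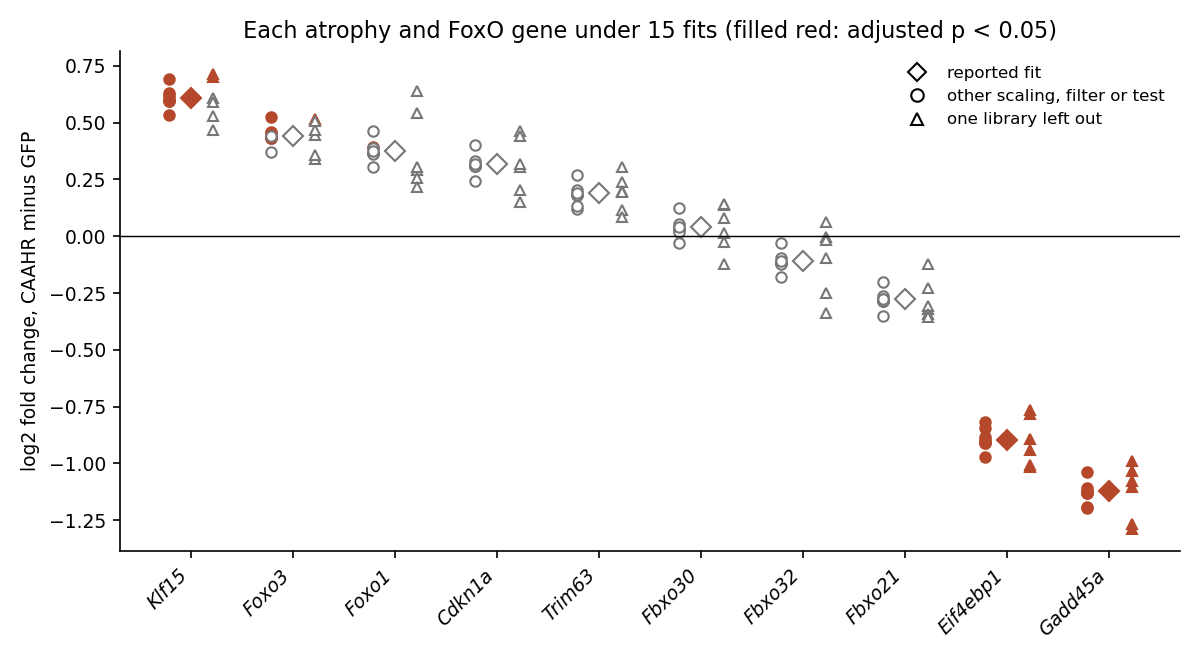
Log2 fold change of each gene, CAAHR minus GFP (vertical axis), in the reported fit (diamonds), with other scalings, filters or tests (circles) and with 1 library left out (triangles), filled red where the adjusted p was under 0.05. All symbols of Gadd45a and Eif4ebp1 are filled and below 0, those of Klf15 are above 0 and partly filled, and those of Fbxo32 and Fbxo30 lie on both sides of 0.

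Levels of different genes were compared as CPM per kilobase of exon, averaged over the libraries of a group. In GFP muscles Trim63 was at 136 CPM per kilobase and Fbxo32 at 79.6, and their ranges did not overlap (115 to 156 and 52.1 to 97.35). Next came Eif4ebp1 at 22.1, followed by Gadd45a at 11.6, Klf15 at 10.2 and Cdkn1a at 6.31 CPM per kilobase. Foxo3 at 3.64, Foxo1 at 3.48, Fbxo21 at 3.07 and Fbxo30 at 2.59 CPM per kilobase were the lowest. The neighbours Gadd45a and Klf15 overlapped in range, as did each neighbouring pair from Foxo3 down to Fbxo30. In CAAHR muscles Trim63 (155 CPM per kilobase) and Fbxo32 (73.8) kept the first places without overlap. Behind them, Klf15 moved from the fifth place to the third with 15.5 CPM per kilobase and Gadd45a from the fourth to the sixth with 5.35. Eif4ebp1 (11.8), Cdkn1a (7.86), Foxo3 (4.94) and Foxo1 (4.51) took the places between and after them. Each neighbouring pair from Klf15 down to Foxo1 overlapped in range in CAAHR muscles, but Klf15 lay above Cdkn1a and every gene after it, and Eif4ebp1 above Gadd45a, in all libraries. Likewise Fbxo30 (2.67) and Fbxo21 (2.535) overlapped at the bottom.

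**Figure D4:**
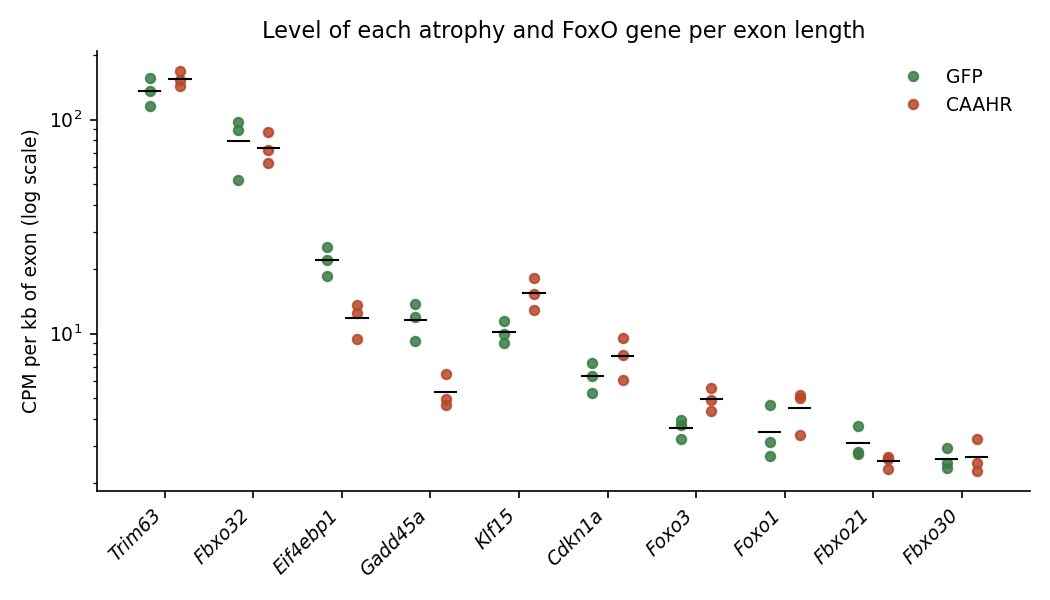
Level of each gene in CPM per kilobase of exon (vertical axis, log scale) in each GFP (green) and CAAHR (red) library, with group means as bars. Trim63 and Fbxo32 lie above all others in both groups, and Klf15 lies above Eif4ebp1 and Gadd45a only in the CAAHR means.

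The libraries were not evenly ordered over the 10 genes. GFP replicate 46 was the lowest GFP library for 9 of them, Eif4ebp1 being the exception, whereas it was the lowest for 38.4% of all tested genes. CAAHR replicate 34 was the lowest CAAHR library for 5 of the 10 (Fbxo30, Foxo1, Foxo3, Klf15 and Cdkn1a), against 36% of all tested genes. The genes share libraries and are not independent of each other.

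The genes with library profiles most like the main ligases were sought among 4855 genes at 20 CPM or more, by the root mean square difference of mean-centred log2 CPM over the 6 libraries. Among the nearest to Trim63 were Narf (0.0357), Pcnp (0.0437), Dnajb9 (0.0515) and Lpin1 (0.0586). For Fbxo32 the nearest were Appl2, Mylip, Tsr1, Naa25 and Klhl38, at 0.17 to 0.192. The measure is not scaled by a gene's own spread, which was larger for Fbxo32 (within-group SD 0.386 in log2) than for Trim63 (0.176). The larger distances of Fbxo32 therefore do not show that genes followed it less closely. None of these named neighbours passed the test between the groups. They were chosen by profiles that include the group difference, like ligases that did not pass, so this is not a separate result.

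A list of 24 genes held other ubiquitin ligases, ligase partners, SCF core subunits and Usp14 and Usp19, whose enzymes remove ubiquitin. In CAAHR muscles 1 of them was significantly higher and none lower, against 3.04% and 4.57% of all tested genes. It was Cblb, which encodes a ligase that targets insulin signalling proteins, at 23.75, 25.25 and 21.65 CPM against 16.6, 17.5 and 12.4 CPM (log2 fold change 0.61 ± 0.14, adjusted p = 0.0277). All its CAAHR libraries were above the GFP libraries, but the call was lost on leaving out any 1 of CAAHR replicates 31 and 36 and GFP replicates 42 and 46. The median log2 fold change of the 24 was 0.155, with 18 above 0 (51.2% of all tested genes were) and 4 at an unadjusted p under 0.05 (23.9% of all tested genes).

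Among 15 FoxO paralogues and regulators, none had an adjusted p or an unadjusted p under 0.05, against 7.60% and 23.9% of all tested genes. DESeq2 and the other full-library fits called none either. Without CAAHR replicate 34, 1 passed, Junb, which was lower. The smallest p-values belonged to Foxo4, a FoxO paralogue (log2 fold change 0.27 ± 0.12, adjusted p = 0.210), and Pdpk1, a kinase upstream of Akt (0.28 ± 0.13, adjusted p = 0.229). The median was 0.041.

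Of 22 other FoxO target genes, 3 were significantly higher and none lower in CAAHR muscles, against 3.04% and 4.57% of all tested genes. Their median log2 fold change was 0.225, and 11 had an unadjusted p under 0.05, as did 23.9% of all tested genes. Pdk4, the kinase that turns off pyruvate dehydrogenase, was at 1287, 958 and 1416 CPM in CAAHR and at 562, 504 and 283 CPM in GFP muscles (log2 fold change 1.44 ± 0.26, adjusted p = 0.0181). Gabarapl1, of the autophagosome membrane, was at 79.6, 45.5 and 83.1 CPM against 34.5, 37.7 and 28.9 CPM (1.04 ± 0.23, adjusted p = 0.0353). Cited2, a transcriptional coregulator, was at 77.3, 51.4 and 71.2 CPM against 44.95, 37.3 and 35.1 CPM (0.77 ± 0.16, adjusted p = 0.0236). In each of the 3, CAAHR replicate 34 was the lowest CAAHR library and still above every GFP library. The number called higher was 5 without CAAHR replicate 34, 0 without CAAHR replicate 36 and 1 without CAAHR replicate 31, GFP replicate 43 or GFP replicate 46. Fbxo32 and Trim63, which share this regulator, did not pass the test, and the difference between them and these genes was not tested.

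A list of 20 genes held glucocorticoid and KLF15 targets and Nr3c1, the glucocorticoid receptor gene. None was significantly higher and 2 were lower in the reported fit, against 3.04% and 4.57% of all tested genes. The other fits with all libraries called 2 to 6 lower, and 1 higher only with no filter on low counts. Without GFP replicate 43, however, there were 4 higher (Fkbp5, Zbtb16, Sgk1 and Glul) and 2 lower. GFP replicate 43 also had the highest summed lymphocyte (431 CPM) and macrophage (105 CPM) markers of all libraries, and a link to these calls was not tested. The lower genes in the reported fit were the metallothioneins Mt1 and Mt2. Mt1 was at 14.4, 10.4 and 14.6 CPM against 23.0, 46.05 and 35.5 CPM (log2 fold change -1.41 ± 0.26, adjusted p = 0.0221), and Mt2 was at 8.03, 7.12 and 8.45 CPM against 14.5, 24.8 and 21.15 CPM (-1.35 ± 0.19, adjusted p = 0.00391). Metallothioneins bind zinc and are also induced by metals. The median of the list was 0.005, and 8 of the 20 had an unadjusted p under 0.05, beside 23.9% of all tested genes. The number called was 1 without CAAHR replicate 31 or 36 and 4 without CAAHR replicate 34, all lower.

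Of 15 denervation response genes 13 could be tested, and 3 were significantly higher with none lower, against 3.04% and 4.57% of all tested genes. Ankrd1, a stretch-responsive sarcomere protein, had a log2 fold change of 1.40 ± 0.17 (adjusted p = 0.00212). The acetylcholine receptor subunits Chrnb1 (0.77 ± 0.15, adjusted p = 0.0193) and Chrnd (1.05 ± 0.23, adjusted p = 0.026) were higher too. The median of the 13 was 0.297, and the ligase genes of this programme, Fbxo32, Trim63 and Fbxo30, did not pass. The number called higher was 5 without CAAHR replicate 34 and 1 without CAAHR replicate 36, GFP replicate 43 or GFP replicate 46.

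Gadd45a and Cdkn1a were set beside a list of 14 genes, p53 targets and the p53 gene Trp53 itself. Of these, 1 was significantly higher and 2 lower, against 3.04% and 4.57% of all tested genes. Their median log2 fold change was -0.266, and 12 of 14 were below 0 (48.8% of all tested genes were). Plk2, a stress-induced kinase, was at 30.75, 90.8 and 59.8 CPM against 11.7, 14.8 and 11.5 CPM (log2 fold change 2.26 ± 0.42, adjusted p = 0.0365). Phlda3, a repressor of Akt, was at 174.5, 195.5 and 213 CPM against 248, 264 and 327 CPM (-0.53 ± 0.13, adjusted p = 0.0417). Pmaip1, a proapoptotic gene, had 2, 3 and 2 counts in CAAHR and 12, 47 and 16 counts in GFP libraries (adjusted p = 0.0207), too few in CAAHR for a fold. It had enough counts to be tested only through the GFP libraries, so little weight rests on its call. With at least 10 counts required in every library it was not tested, and 1 gene of the list was called lower. The voom fit did not call Pmaip1 either. The number of the 14 called was 0 without CAAHR replicate 36 and 1 without CAAHR replicate 31, GFP replicate 43 or GFP replicate 46. Of 4 paralogues of Cdkn1a and Gadd45a none passed, and 3 had an unadjusted p under 0.05 (23.9% of all tested genes). The smallest p-values were those of Cdkn1b (0.46 ± 0.14, adjusted p = 0.0697) and Cdkn1c (-0.31 ± 0.10, adjusted p = 0.0998). DESeq2 called 2 of the 4, beside 1923 of all 15847 tested genes. Without CAAHR replicate 31, 1 passed, beside 694 of 16473.

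Eif4ebp1 was set beside 21 genes of mTORC1 and cap-dependent translation, of which 1 was significantly higher and 1 lower, with a median log2 fold change of 0.037. Rptor, the subunit of mTORC1 that recruits its substrates, was at 42.1, 40.0 and 45.8 CPM against 33.05, 27.5 and 30.5 CPM (log2 fold change 0.49 ± 0.10, adjusted p = 0.0196). Atf4, a transcription factor of amino acid stress that is known to raise Eif4ebp1 and Gadd45a, was at 99.8, 126 and 109 CPM against 153, 163 and 186 CPM (-0.59 ± 0.12, adjusted p = 0.0193). For both genes the groups did not overlap, and both calls were lost on leaving out any 1 of CAAHR replicates 31 and 36 and GFP replicates 43 and 46. Without CAAHR replicate 34, 4 of the 21 were called. Over the 8 lists, 9 of 133 tested genes were higher and 5 lower, to be read beside the backgrounds of 3.04% and 4.57%, with a median log2 fold change of 0.092.

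**Figure D5:**
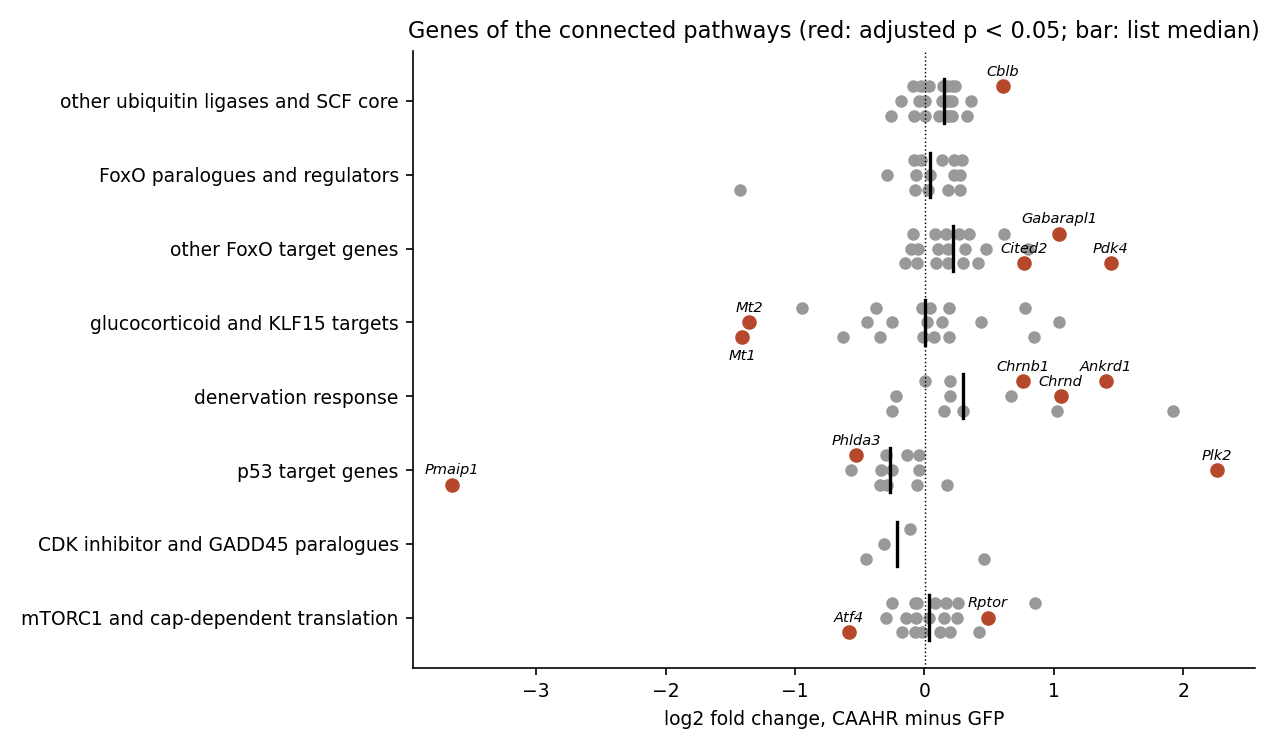
Log2 fold change, CAAHR minus GFP (horizontal axis), of each tested gene in the 8 lists, with the list median as a black bar. Genes with an adjusted p under 0.05 are red and named, and 3 of them lie to the right in both the other FoxO targets and the denervation response.

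A few exons of these genes are shared with genes on the opposite strand. Fbxo32 shares 186 of its 6976 exon bases (2.67%) with Gm15943, a noncoding gene at 5.86 CPM in CAAHR and 8.48 CPM in GFP muscles, lower in CAAHR with an adjusted p of 0.0262. Foxo1 shares 674 bases with Gm20402, which had 0 counts in every library, and Cdkn1a shares 273 bases with AC167363.2, which was not in the count table.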

How the data were processed

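The authors deposited raw counts per gene for 6 libraries of total RNA from gastrocnemius muscle, neither normalised nor pooled. The submitters' processing notes list Trimmomatic 0.36, STAR 2.5.2b and the GRCm38 build, and the study's methods name featureCounts for counting. Groups and replicate numbers were read from the sample titles. Analysis used R 4.3.3. Low counts were removed with filterByExpr of edgeR 4.0.16, TMM factors were applied, and the robust quasi-likelihood test compared the groups, with Benjamini-Hochberg adjustment over all 15847 genes at 0.05. Levels between genes were CPM per kilobase of exon (GENCODE M21 on GRCm38, which held 99.5% of the genes). No library was a copy of another in its group, as chi-square divided by its degrees of freedom was 23.8 or more for each pair within a group. Alternatives were DESeq2 size factors, upper quartile or library size scaling, no filter, at least 10 counts in every library, DESeq2 1.42.0, voom of limma 3.58.1 with sample weights, edgeR without robust estimation, an added limit of 1 on the absolute log2 fold change, promoter windows cut to their last 150 bases, and leaving out each library. The calculations were tested on simulated data. The 10 genes and the lists were chosen with earlier results of these data known. Genes under an adjusted p of 0.05 were named in each list, or else those with the 2 smallest p-values, and the 5 nearest to Fbxo32 and Trim63, of which 1 is not reported here.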

Additional observations from a re-analysis of the deposited data

How the results depend on the processing

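No paired analysis was possible because no replicate number occurs in both groups. With 3 libraries a group, single libraries decided several calls. Of the 10 genes, 3 passed in the reported fit, 5 with no filter on low counts, 4 with library size scaling, DESeq2 or voom, and 1 with the added limit on fold change. Leaving out 1 library gave 2 to 4. Over all lists 14 genes passed, 26 with no filter and 24 with DESeq2. The range was 2 (without CAAHR replicate 36) to 24 (without CAAHR replicate 34) with 1 library left out. Calls over all tested genes moved as well. They were 1205 of 15847 in the reported fit, 2470 of 28661 with no filter and 1923 with DESeq2. Library size scaling gave 1476 and voom 1402. Without CAAHR replicate 36 they were 530 of 16170, and without CAAHR replicate 34 they were 1727 of 16180. The sign changed for Fbxo30 with upper quartile scaling (-0.030). With 1 library left out, the log2 fold change ranged from -0.34 to 0.064 for Fbxo32 and from -0.12 to 0.14 for Fbxo30, and the group difference in the log2 Foxo1 to Foxo3 ratio from -0.14 to 0.11. That in the Fbxo32 to Trim63 ratio stayed between -0.44 and -0.10. Scaling by library size alone moved the median of all genes to 0.09, and upper quartile scaling to -0.064. In the last 150 bases, the AHR core remained in Fbxo21 and in Klf15, at -81, and was in 21.1% of all windows. The causes were not tested.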

Other observations

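Atf4 was lower in CAAHR muscles beside Eif4ebp1 and Gadd45a, so known ATF4 targets were also read. The call of Atf4 itself was lost on leaving out any 1 of CAAHR replicates 31 and 36 and GFP replicates 43 and 46. The list of targets was chosen after values had been seen, and fits with a library left out are not given for it. Of 14 genes 12 could be tested, 3 were significantly lower and none higher in CAAHR muscles, and 11 of the 12 had a negative log2 fold change. Over all tested genes 4.57% were significantly lower and 48.8% negative. The list had a median log2 fold change of -0.483, against 0.009 over all genes. Phgdh, the first enzyme of serine synthesis, was at 1.23, 1.09 and 1.755 CPM in CAAHR replicates 31, 34 and 36 and at 4.35, 3.39 and 4.46 CPM in GFP replicates 42, 43 and 46 (log2 fold change -1.58 ± 0.23 (SE), adjusted p = 0.00365, edgeR). Psat1, of the same pathway, was at 0.870, 0.700 and 1.165 CPM against 2.26, 1.68 and 1.605 CPM (-1.02 ± 0.27, adjusted p = 0.0487). Vldlr, a lipoprotein receptor, was at 193, 220.3 and 195 CPM against 318, 334 and 366 CPM (-0.74 ± 0.11, adjusted p = 0.00382). In all 3 the groups were apart. Chac1, a glutathione-degrading enzyme, was the 1 gene above 0 (0.20 ± 0.24, adjusted p = 0.674), and Trib3 was at -0.0012 ± 0.37.

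Some genes of the lists had large values but did not pass, and were picked after their values were seen. Myog, the myogenic factor that drives Fbxo32 and Trim63 in denervated muscle, was at 2.75, 4.74 and 4.92 CPM in CAAHR and at 2.57, 2.07 and 1.49 CPM in GFP muscles (log2 fold change 1.02 ± 0.27, adjusted p = 0.0523). Dach2, a known repressor of Myog, was at 7.85, 2.275 and 4.64 CPM against 0.560, 1.59 and 1.74 CPM (1.92 ± 0.57, adjusted p = 0.0981). Every CAAHR library was above every GFP library for both genes. Junb, which encodes a factor that opposes FoxO3 in muscle, was at 9.81, 52.3 and 20.3 CPM against 64.9, 80.6 and 76.3 CPM (-1.43 ± 0.64, adjusted p = 0.263), with CAAHR replicate 34 closest to the GFP libraries, and passed as lower without that replicate. Fkbp5, a glucocorticoid-induced chaperone partner, was at 81.5, 99.8 and 113 CPM against 34.2, 94.4 and 43.45 CPM (0.78 ± 0.41, adjusted p = 0.330), and GFP replicate 43 lay among the CAAHR libraries. It passed as higher without that replicate.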
